A study of Mus musculus with 4 samples.

Results

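The genes described here encode the proteasome and were chosen by name, as every gene whose symbol begins with Psma, Psmb, Psmc, Psmd or Psme. Of the 31053 genes in the count tables, 45 met this rule, which uses no measured value. CD4 and CD8 T cells had been sorted by flow cytometry from the meninges and the choroid plexus, the tissue that makes cerebrospinal fluid. They were profiled by 5′ single-cell RNA-seq. All mice were female and of the C57BL/6 strain, and the labels name no treatment or genotype. The 4 libraries are named as in the labels, with YM from the meninges and YCP from the choroid plexus of young mice of 10 weeks, and OM and OCP from the same tissues of aged mice of 18 months. Each library pooled the cells of 5 mice, so that there was 1 library for each condition and no replicate. Differences between libraries were therefore not tested, and intervals are 95% intervals that cover counting error only. They are exact except for differences between shares, where they are approximate.

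The proteasome is the protease that degrades ubiquitin-tagged proteins in all cells. Its 20S core is a stack of rings of alpha and beta subunits, and its 19S cap, made of ATPases and of base and lid subunits, unfolds the substrates. Interferon exchanges the catalytic beta subunits Psmb5, Psmb6 and Psmb7 for Psmb8, Psmb9 and Psmb10 and induces the ring-shaped activator PA28, made of Psme1 and Psme2. The resulting immunoproteasome is known for cutting peptides for MHC class I, and lymphocytes carry it without any added interferon.

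By these roles, 5 of the 45 genes are immunoproteasome genes and 31 make up the constitutive particle. The 31 are 7 alpha subunits, 4 beta subunits without an active site, the 3 replaced catalytic subunits, 6 ATPases and 11 other 19S subunits. All but the 3 replaced subunits can also be part of the immunoproteasome. The sum of the 31, called constitutive here, therefore does not measure the constitutive form alone. The other 9 are 3 chaperones of 19S assembly, 3 other activators, the germ-line Psma8, the thymic Psmb11 and Psmc3ip, a recombination factor that is named for binding Psmc3 and is no subunit. In all T cells together, Psmb11 had 0 UMIs (unique molecular identifiers, each standing for 1 captured mRNA) and Psma8 had 1, and both are far below any other member. A count of 0 in a pool allows up to 3 UMIs. Psme2b, with 108 UMIs, is a near copy of Psme2 with which reads can be shared, and its values are uncertain.

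Several of these genes lie side by side. On the gene models of the mouse build GRCm38, Psmb8 occupies chr17:34197721-34201454 on the plus strand and Psmb9 chr17:34181987-34187764 on the minus strand, 9957 bases apart. The peptide transporter gene Tap1 lies between them and overlaps the 5′ end of Psmb9 on the opposite strand, so that reads of both can be told apart there by strand only. Psme1 and Psme2 are neighbours on chromosome 14, 5912 bases apart, whereas Psmb10 lies on chromosome 8. To show which regulatory letters lie near their starts, the RefSeq promoter windows of GRCm38.p6, from 250 bases before to 50 bases after the start, were searched on both strands for an interferon-stimulated response element (ISRE, GAAANNGAA), a gamma-activated sequence (GAS, TTCNNNGAA) and an antioxidant response element (ARE, TGACNNNGC). Windows were found for 38 of the 45 members, 41 windows in all. The ISRE letters were in 6 of the 41 (14.6%) against 8.56% of all 32851 windows, the GAS letters in 2 (4.88% against 8.30%) and the ARE letters in 6 (14.6% against 12.4%). Each match is printed below for the immunoproteasome genes and for the catalytic subunits that they replace, 29 bases on the gene's strand with the match in capitals. The letters of the Psme1 match are those of the ISRE on the opposite strand.
Psmb8, GAS, chr17:34198088-34198116, plus strand: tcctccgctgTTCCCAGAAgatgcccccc
Psme1, ISRE, chr14:55578494-55578522, plus strand: gagctgtgctTTCGCTTTCccttcccgct
Psmb5, ARE, chr14:54618024-54618052, minus strand: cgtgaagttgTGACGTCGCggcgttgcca
Psmb6, ARE, chr11:70525338-70525366, plus strand: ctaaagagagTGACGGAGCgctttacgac
The Psmb8 match began 97 bases before the RefSeq start and the Psme1 match 11 bases after it, and the Psmb8 match lies inside the longer gene model given above. Of the windows of Psmb9, Psmb10 and Psme2, 0 held any of the 3 motifs in these letters. Psmb7 had no window and was not searched.

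Cells were kept at 200 to 7000 genes and at most 5% mitochondrial UMIs, which left 1035 cells of 1111 barcodes in YM, 631 of 718 in YCP, 1436 of 1695 in OM and 1106 of 1277 in OCP, and called doublets were then removed. T cells, with a UMI of Cd3d, Cd3e or Cd3g, were classed as CD4 (160 to 362 cells per library), CD8 (160 to 473) or neither (269 to 735), the last having no UMI of Cd4, Cd8a or Cd8b1. The median depth per cell was 2815 to 3645 UMIs in the young and 2079 to 3121 in the aged classes. Libraries shared at most 3 cell barcodes. Levels are summed over a class and given as UMIs per 1000000 UMIs of the class (CPM). The 3 Cd3 genes, which define the T cells, summed to 2954 to 3158 CPM in young and 3380 to 3660 CPM in aged classes and thus moved in the direction of the results below, and fibroblast markers reached no more than 1.15 CPM. The 4 B-cell markers summed to 151 to 263 CPM in young and 65.2 to 213 in aged classes, the 7 macrophage markers to 0 to 193 (highest in OCP CD4), the 4 haemoglobin genes to 0 to 483 (highest in YM neither), the 5 epithelial markers of the choroid plexus to 0 to 175 (highest in YCP CD8), the 5 gamma-delta T-cell markers to 5.93 to 181 (highest in OCP CD8), the 4 natural killer markers to 4.01 to 74.1 (highest in YCP CD8) and the 6 cycling genes to 84.3 to 506 (highest in OCP CD8). The part of these cells in the results was not tested beyond leaving them out, which is given in the closing section. Ratios below are log2 of the levels after adding 10 CPM to each.

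The immunoproteasome genes were among the most abundant members. Averaged over the 12 sums (3 classes in 4 libraries), Psmb8 had the highest level at 760 CPM, followed by Psme1 at 620, Psme2 at 502 and Psmb9 at 284. The most abundant constitutive genes came next, with Psmb3 at 283, Psmb1 at 266, Psma3 at 263, Psma2 at 240 and Psma7 at 238. Psmb10 stood at 174 CPM, Psmb6 at 154, Psmb5 at 150 and Psmb7, the counterpart of Psmb10, at 35.6. These levels are per UMI and each mRNA is counted at its 5′ end, so that they were not divided by gene length.

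The level of Psmb8 was higher in the aged than in the young library in all 3 classes of both tissues. Psmb8 is the immunoproteasome subunit with chymotrypsin-like activity that takes the place of Psmb5. In CD4 T cells it stood at 617 CPM in YM and 940 in OM, and at 582 in YCP and 886 in OCP. CD8 T cells had 589 in YM and 980 in OM, and 600 in YCP and 994 in OCP. In the neither class it was 570 in YM and 888 in OM, and 575 in YCP and 902 in OCP. All 6 young sums lay between 570 and 617 CPM and all 6 aged sums between 886 and 994, so that the ages did not overlap, and within each class the counting intervals of both young libraries lay below those of both aged ones. Levels of the constitutive genes Psma2, Psma3 and Psmb3 and the sum of the Cd3 genes also did not overlap between the ages. The share of all genes that separate in this way is not given. The log2 ratios of aged over young were 0.60 (0.45 to 0.76), 0.72 (0.58 to 0.88) and 0.63 (0.52 to 0.76) for CD4, CD8 and neither meningeal cells, and for those of the choroid plexus 0.60 (0.41 to 0.81), 0.72 (0.57 to 0.89) and 0.64 (0.49 to 0.81). A log2 ratio of 0.5, which is 1.41-fold, was used as the limit for calling a gene higher or lower, and Psmb8 was past it in all 6 comparisons. After subtraction of the median of all genes it fell short of the limit in CD4 cells of the choroid plexus (0.49), and with ribosomal protein, mitochondrial, T-cell receptor and immunoglobulin genes left out of the CPM total in CD4 cells of both tissues (0.49 for the meninges and 0.47 for the choroid plexus). With each cell thinned to 1000 UMIs, 34.0 to 44.9% of young and 55.9 to 63.3% of aged cells had a Psmb8 UMI (75.3 to 86.2% and 81.8 to 92.2% unthinned). No cell type in these libraries lacks the proteasome, so that no background share could be given.

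**Figure D1:**
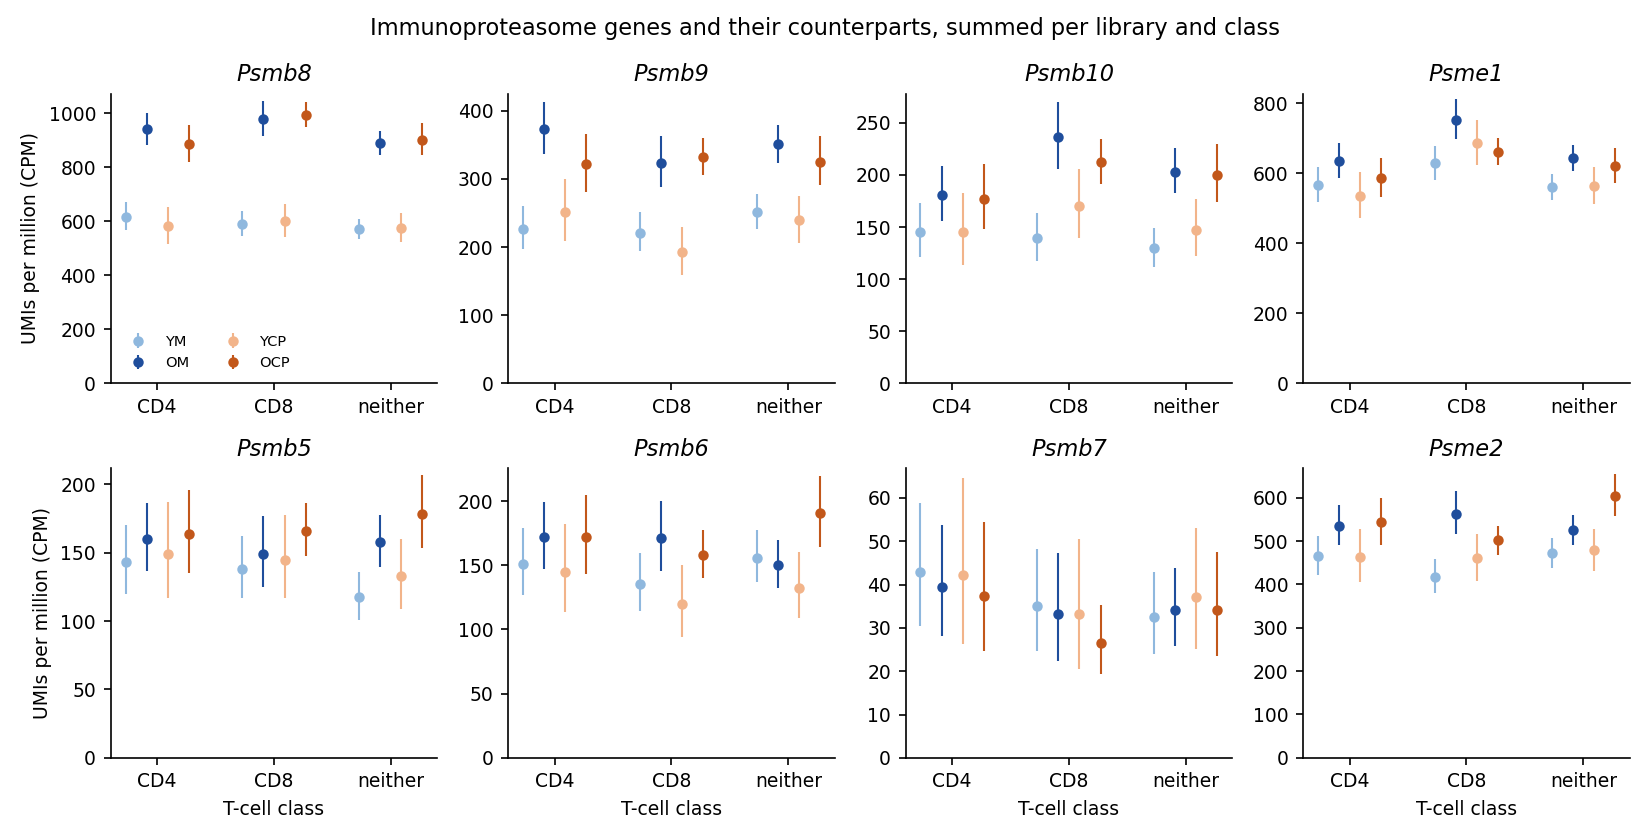
Levels of the 5 immunoproteasome genes and the 3 catalytic subunits they replace, in CPM of summed UMIs (vertical axes, from 0), for CD4, CD8 and neither T cells of YM, OM, YCP and OCP. Points are 1 library each and error bars are exact 95% Poisson intervals of the counts. Psmb8 stands at 570 to 617 CPM in the young and 886 to 994 CPM in the aged libraries, and Psmb7 is the lowest of the 8 genes.

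Psmb9 and Psmb10, the other catalytic immunoproteasome subunits, were also higher with age in all 6 comparisons, with more spread. Psmb9, which replaces Psmb6 and is encoded beside Psmb8, stood at 227 CPM in YM and 373 in OM and at 252 in YCP and 321 in OCP in CD4 T cells. In CD8 cells it was 221, 324, 192 and 332 in the same order, and in neither cells 251, 351, 239 and 326. Its highest young level, 252 CPM, was below its lowest aged level, 321 CPM, but the share of all genes that separate in this way is not given. The log2 ratios ran from 0.34 (0.03 to 0.68) in CD4 cells to 0.76 (0.50 to 1.08) in CD8 cells of the choroid plexus, with those of the meninges between 0.47 and 0.69.

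Psmb10, which replaces Psmb7, was at 146 CPM in YM, 181 in OM, 145 in YCP and 177 in OCP in CD4 T cells. CD8 T cells had 139, 236, 170 and 212 CPM and neither cells 129, 203, 147 and 200 CPM, again in the order YM, OM, YCP and OCP. Its young and aged levels did not overlap, but the gap was narrow, between 170 and 177 CPM. For Psmb10 too, the share of all genes that separate by age is not given. The ratio was largest in CD8 cells of the meninges at 0.73 (0.46 to 1.08), and in CD4 cells the counting intervals included 0 in both tissues (0.29, −0.02 to 0.65, and 0.27, −0.14 to 0.73). Summed, the 3 catalytic genes gave log2 ratios of 0.50 to 0.69 over the 6 comparisons.

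The genes of PA28 differed less with age than the catalytic genes, with sums 0.02 to 0.33 apart on the log2 scale and, after subtraction of the median of all genes, one comparison below 0 (−0.08, CD8 cells of the choroid plexus). Psme1 was at 565 CPM in YM, 636 in OM, 535 in YCP and 586 in OCP in CD4 T cells. In CD8 cells it was 628, 752, 686 and 661, and in neither cells 560, 642, 563 and 621. CD8 cells of the choroid plexus were thus the one pair in which Psme1 was not above its young level (−0.05, −0.21 to 0.11).

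Psme2 was above its young level in all 6 pairs. CD4 T cells had 465 CPM in YM, 535 in OM, 463 in YCP and 543 in OCP, CD8 cells 418, 563, 460 and 501, and neither cells 472, 525, 478 and 604. The log2 ratio of Psme2 was largest in CD8 cells of the meninges at 0.42 (0.24 to 0.62) and smallest in CD8 cells of the choroid plexus at 0.12 (−0.07 to 0.32). Neither PA28 gene was past the limit of 0.5 in any comparison.

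All 5 genes together summed to 1977 to 2109 CPM in the 6 young classes and to 2514 to 2856 CPM in the 6 aged classes. The log2 ratios of aged over young were 0.40 (0.31 to 0.49) in CD4, 0.51 (0.43 to 0.60) in CD8 and 0.40 (0.33 to 0.46) in neither meningeal cells, and those of the choroid plexus were 0.35 (0.23 to 0.46), 0.36 (0.27 to 0.45) and 0.40 (0.32 to 0.50). The median ratio of all genes with enough UMIs (50 or more in both libraries together) was 0.04 to 0.06 for meningeal cells and 0.10 to 0.11 for the choroid plexus. After its subtraction the sum ranged from 0.23 to 0.46, and with ribosomal protein, mitochondrial, T-cell receptor and immunoglobulin genes left out of the CPM total it ranged from 0.21 to 0.38. Ribosomal protein genes held 33.7 to 39.6% of the UMIs in young and 28.5 to 34.4% in aged classes.

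The sum of the 31 constitutive genes, most of them shared with the immunoproteasome, moved less. It was 2987 to 3620 CPM in young and 3360 to 3920 CPM in aged classes, ranges that overlapped. Those of Psma2, Psma3 and Psmb3, taken singly, did not overlap. The log2 ratios were 0.11 (0.05 to 0.18), 0.18 (0.11 to 0.25) and 0.10 (0.05 to 0.16) for CD4, CD8 and neither meningeal cells and 0.14 (0.06 to 0.23), 0.17 (0.10 to 0.25) and 0.26 (0.19 to 0.34) for the choroid plexus, but with the ribosomal and other genes left out of the total they fell between −0.01 and 0.13, and the neither cells of the meninges were then the pair below 0. Of the constitutive genes with 50 or more UMIs in both libraries together, 19, 23 and 21 of 31 had a ratio above 0 in CD4, CD8 and neither meningeal cells, and 21 of 29, 22 of 31 and 23 of 31 for the choroid plexus. Their medians were 0.09, 0.15 and 0.08, and 0.10, 0.14 and 0.28. The medians of all genes with enough UMIs were 0.06, 0.06 and 0.04, and 0.11, 0.10 and 0.11, in the same order. The background of these counts thus also leaned above 0. As the share of all genes with a ratio above 0 is not given, no excess is read from the counts.

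**Figure D2:**
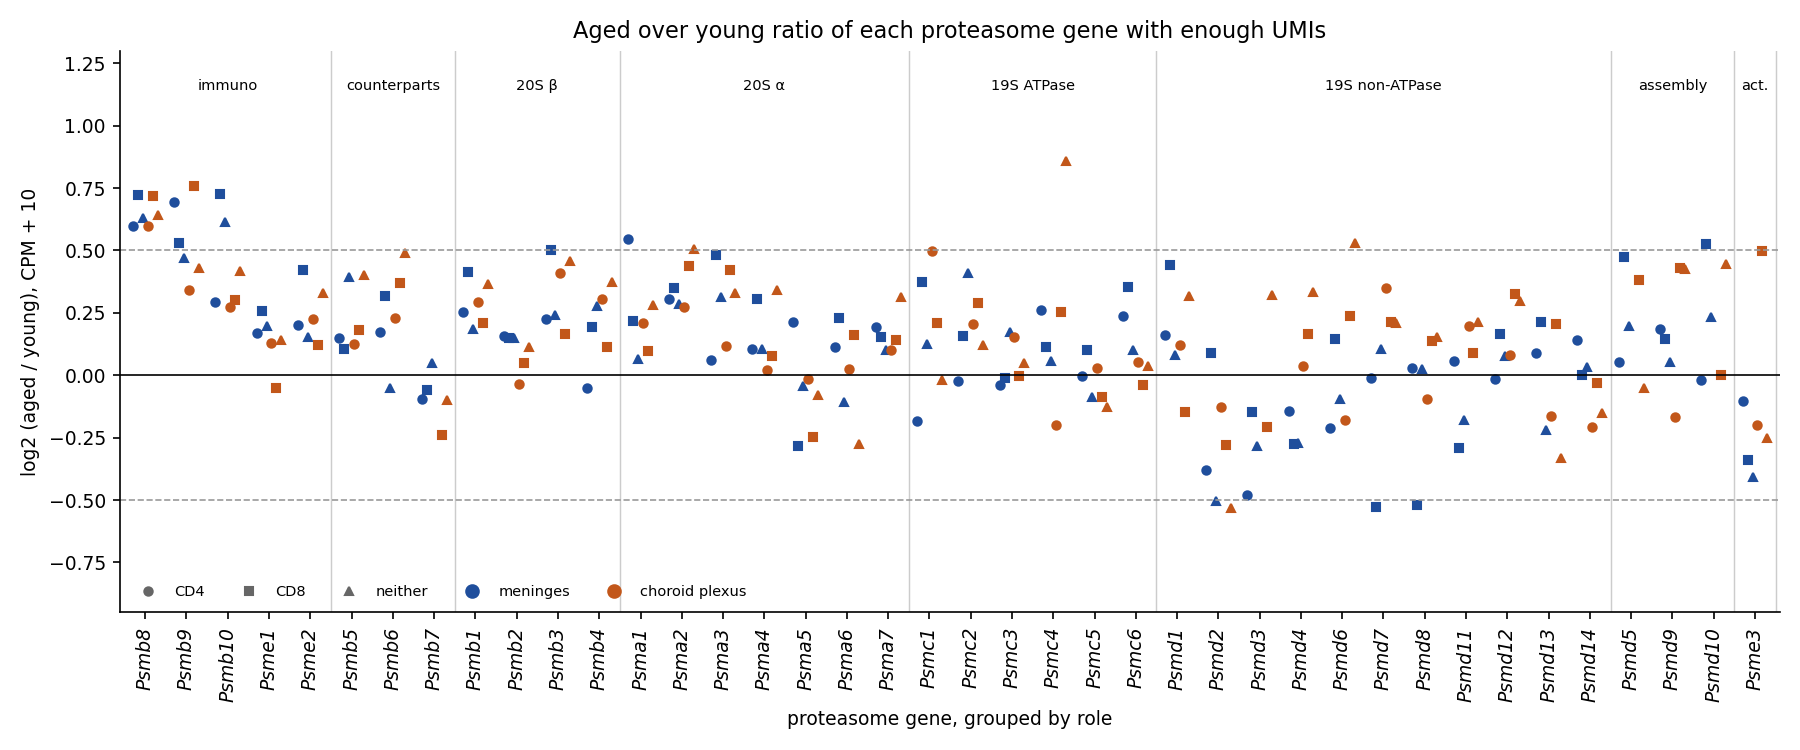
Log2 ratios of aged over young (vertical axis, CPM plus 10) of each proteasome gene with at least 50 UMIs in both libraries together, grouped by role (horizontal axis), with the shape giving the class and the colour the tissue. Points are 1 pair of libraries each with no error drawn, and the dashed lines mark the limit of 0.5 in either direction. Psmb8 lies beyond 0.5 in all 6 pairs, and Psmd2 lies beyond −0.5 in 2.

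Within the constitutive genes, the sums of the core and of the cap were taken separately. The 7 alpha subunits summed to ratios of 0.13 to 0.27 in the 6 comparisons, and the 4 beta subunits without an active site to 0.16 to 0.38. The 3 replaced catalytic subunits, which alone are particular to the constitutive form, gave 0.13 to 0.40. Their largest ratio was in neither cells of the choroid plexus (302 CPM in YCP and 403 in OCP), where the immunoproteasome sum was also 0.40. With the ribosomal and other genes left out of the total, the alpha sum of CD4 cells of the choroid plexus was just below 0 (−0.0048), whereas the other sums of the core stayed above 0 in all 6 pairs under both other scalings. The 6 ATPases of the cap gave 0.04 to 0.17, with 4 of 6 pairs above 0 after subtraction of the median and 3 of 6 with the ribosomal and other genes left out. For the 11 other cap subunits the ratios ran from −0.16 to 0.14 with 3 of 6 above 0, and 1 of 6 under either other scaling.

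The replaced catalytic subunits stood as follows. Psmb5 was at 143 CPM in YM, 160 in OM, 149 in YCP and 163 in OCP in CD4 T cells, at 138, 149, 145 and 166 in CD8 and at 118, 158, 133 and 178 in neither cells. Psmb6 was at 151, 172, 145 and 172 CPM in CD4, at 135, 171, 120 and 158 in CD8 and at 156, 150, 133 and 190 in neither cells. Psmb7 was at 42.9, 39.5, 42.3 and 37.4 CPM in CD4, at 35.0, 33.1, 33.1 and 26.5 in CD8 and at 32.5, 34.1, 37.2 and 34.1 in neither cells. The ratio of Psmb5 was 0.10 to 0.40 in the 6 pairs, with 2 of them below 0 when the ribosomal and other genes were left out. Psmb6 ranged from −0.05 to 0.49, and Psmb7 from −0.24 to 0.05. None of the 3 was past the limit in any pair.

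Among the alpha subunits, Psma3 had the highest mean level and Psma2 the largest mean ratio. Psma3 was at 280 CPM in YM, 292 in OM, 260 in YCP and 283 in OCP in CD4 T cells, at 200, 283, 217 and 295 in CD8 and at 240, 301, 223 and 283 in neither cells. Psma2 was at 235, 292, 225 and 274 CPM in CD4, at 216, 277, 175 and 240 in CD8 and at 228, 281, 178 and 258 in neither cells. Psma2 was higher with age in all 6 pairs under each scaling, by 0.27 to 0.51 on the log2 scale. Psma5 went the other way in 5 of 6 pairs, with ratios of −0.28 to 0.21. Psmb3, the leading structural beta subunit, was at 284, 334, 244 and 327 CPM in CD4, at 223, 320, 265 and 298 in CD8 and at 248, 296, 233 and 324 in neither cells, which gave ratios of 0.16 to 0.50, all above 0 under each scaling.

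In the cap, the ATPase Psmc3 was at 124 CPM in YM, 120 in OM, 98.6 in YCP and 111 in OCP in CD4 T cells, at 106, 105, 97.7 and 97.4 in CD8 and at 98.3, 112, 100.3 and 104 in neither cells, with ratios of −0.04 to 0.17. Psmc4 had the largest mean ratio of the ATPases, which rested on the neither cells of the choroid plexus (34.7 CPM in YCP and 71.2 in OCP, 0.86, 0.39 to 1.72). Elsewhere Psmc4 was at 64.3, 79.0, 60.4 and 51.3 CPM in CD4, 59.6, 65.2, 52.0 and 64.0 in CD8, and 65.7 in YM and 68.7 in OM in neither cells. Psmd8, a lid subunit, was at 148, 151, 143 and 133 CPM in CD4, at 153, 104, 113 and 126 in CD8 and at 135, 137, 125 and 140 in neither cells. Psmd2, a scaffold of the base that binds the ATPases, was the member with the largest mean decrease among the cap genes. It was at 80.1, 59.3, 58.4 and 52.6 CPM in CD4, at 48.2, 51.9, 56.7 and 44.9 in CD8 and at 59.1, 38.7, 68.2 and 44.1 in neither cells. Its ratio was below 0 in 5 of 6 pairs and past the limit in neither cells of both tissues (−0.51, −1.09 to −0.14, and −0.53, −1.23 to −0.03).

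The chaperones and minor activators were scarce. Psmd5, a chaperone of 19S assembly, was at 40.6 CPM in YM, 42.5 in OM, 40.3 in YCP and 40.2 in OCP in CD4 T cells, at 22.7, 35.4, 33.1 and 46.1 in CD8 and at 34.5, 41.0, 47.1 and 45.1 in neither cells. Psmd10 (gankyrin), another of these chaperones, was at 45.1, 44.4, 28.2 and 45.7 CPM in CD4, at 28.4, 45.3, 36.2 and 36.3 in CD8 and at 33.9, 41.6, 29.7 and 44.1 in neither cells. Young and aged levels overlapped for both, and the ratio of Psmd10 was past the limit in CD8 cells of the meninges (0.53), with a counting interval that included 0. Psme3, the nuclear activator PA28 gamma, was at 47.4, 43.5, 52.3 and 44.3 CPM in CD4, at 50.1, 37.6, 25.2 and 39.8 in CD8 and at 48.5, 34.1, 49.6 and 40.1 in neither cells. It was below its young level in 5 of 6 pairs under each scaling. Psme4, the activator PA200, was at 10.2, 14.8, 10.1 and 12.5 CPM in CD4, at 8.51, 15.5, 12.6 and 11.5 in CD8 and at 9.96, 15.0, 6.20 and 22.0 in neither cells. With 157 UMIs in all, Psme4 was under the minimum of 50 UMIs in every pair.

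Counted over the members with enough UMIs, few were past the limit, and the counts stood beside a sizeable background. Compared were 40 members in each comparison but 36 in CD4 cells of the choroid plexus. In CD4 cells of the meninges, 3 were higher (Psma1, Psmb8 and Psmb9) and 0 lower, where 14.2% of all genes compared were higher and 7.32% lower. In CD8 cells of the meninges, 5 were higher (Psmb3, Psmb8, Psmb9, Psmb10 and Psmd10) and 2 lower (Psmd7 and Psmd8), where 13.1% of all genes were higher and 7.18% lower. In neither cells of the meninges, 2 were higher (Psmb8 and Psmb10) and Psmd2 was lower, beside 11.9% and 7.01% of all genes. CD4 cells of the choroid plexus had Psmb8 higher and 0 lower, beside 17.4% and 7.72%. CD8 cells there had Psmb8 and Psmb9 higher and 0 lower, beside 13.5% and 5.2%. Neither cells there had 4 higher (Psma2, Psmb8, Psmc4 and Psmd6) and Psmd2 lower, beside 14.2% and 6.38%. The share of all members past the limit was thus below the background in all 6 pairs and in either direction. The calls depended on the scaling, in alternatives added after the data were seen. After subtraction of the median of all genes, 2, 2 and 2 members were higher in CD4, CD8 and neither meningeal cells, and 0, 2 and 2 for the choroid plexus, and Psma1, Psma2, Psmb3, Psmd6 and Psmd10 were no longer among them, nor was Psmb9 in CD8 meningeal cells. Higher by the limit were then 9.03 to 12.6% of all genes, and 7.39 to 10.9% were lower. With ribosomal and other genes left out of the total, Psmb8 in CD4 meningeal cells was lost as well, and the members called higher beyond the 3 catalytic immunoproteasome genes came down to Psmc4 under both scalings. With these genes left out, 10.1 to 13.5% of all genes were higher by the limit and 7.98 to 13.4% were lower.

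A share of UMIs between alternative subunits does not depend on the CPM total. Of the UMIs of the 6 catalytic genes, the immunoproteasome genes held 74.6% in CD4, 75.5% in CD8 and 75.6% in neither cells of YM, and 74.4%, 76.4% and 76.1% in YCP. In the aged libraries the share was 80.1%, 81.3% and 80.8% in OM and 78.8%, 81.5% and 78.0% in OCP. Every aged class was above every young class in these pools of all cells of a class. The aged share was higher by 5.52 (2.48 to 8.62), 5.84 (2.90 to 8.81) and 5.20 (2.84 to 7.60) percentage points in CD4, CD8 and neither cells of the meninges. In the choroid plexus it was higher by 4.38 (0.42 to 8.47) and 5.08 (1.95 to 8.40) points in CD4 and CD8 cells, and in neither cells the difference of 1.92 points was within counting error (−1.27 to 5.20).

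By pairs of replacing and replaced subunit, Psmb8 held 79.6 to 82.9% of the UMIs of Psmb8 and Psmb5 in young and 83.5 to 86.8% in aged classes, higher by 2.02 to 5.78 points and in CD4 and CD8 cells beyond the counting interval. Psmb10 held 77.2 to 83.7% of those of Psmb10 and Psmb7 in young and 82.1 to 88.9% in aged classes, and all 6 pairs were higher with age, by 4.82 to 7.81 points, with 0 outside the interval in CD8 cells of the meninges alone. Psmb9 held 60.0 to 64.3% of the UMIs of Psmb9 and Psmb6 in young and 63.1 to 70.0% in aged classes, ranges that overlapped, and the difference was below 0 in neither cells of the choroid plexus (−1.23 points).

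**Figure D3:**
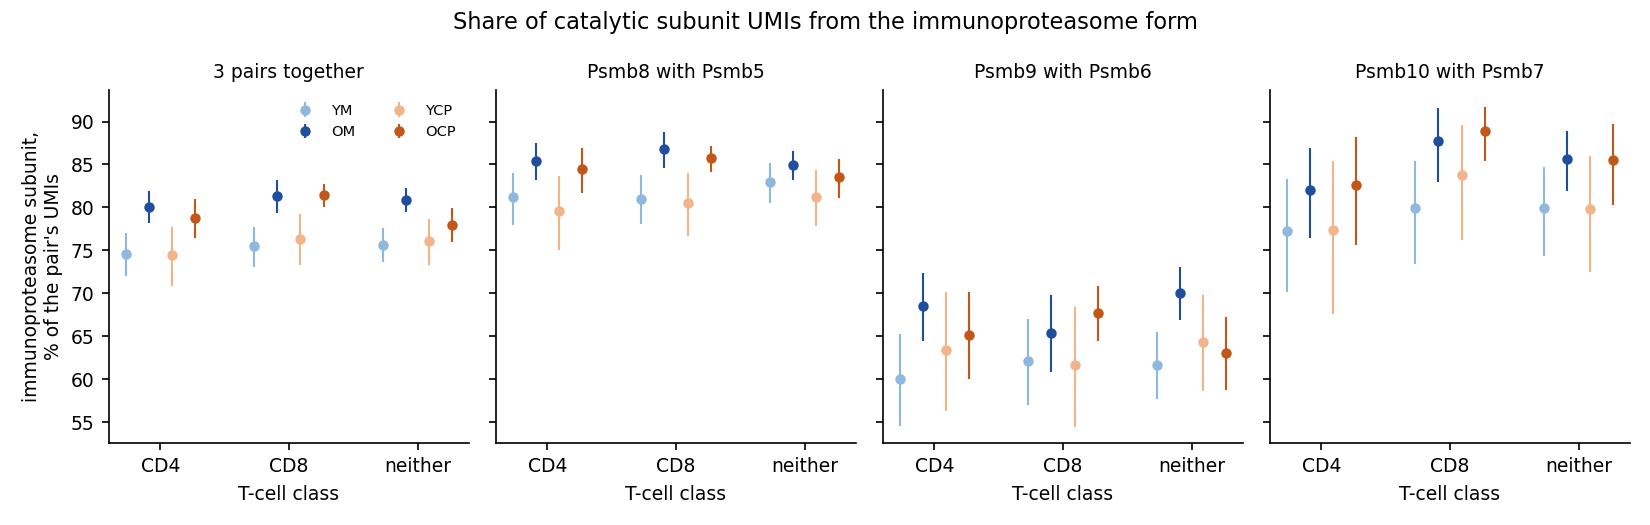
Share of UMIs held by the immunoproteasome gene of each pair of replacing and replaced catalytic subunits, and by the 3 immunoproteasome genes of all 6, in percent (vertical axis), for each class of YM, OM, YCP and OCP. Points are 1 library each with exact 95% binomial intervals. For all 6 genes, the young classes lie between 74.4 and 76.4% and the aged classes between 78.0 and 81.5%.

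Between the classes, the level of Psme1 stood out by its direction. Psme1 was higher in CD8 than in CD4 T cells of the same library in all 4 libraries under each scaling, by 0.15 (−0.02 to 0.32) in YM, 0.35 (0.13 to 0.58) in YCP, 0.24 (0.08 to 0.40) in OM and 0.17 (0.01 to 0.34) in OCP on the log2 scale. Psme2 ranged from −0.15 to 0.07. Psme1 accordingly held 56.9 to 60.0% of the UMIs of both PA28 genes in CD8 and 51.9 to 54.9% in CD4 cells. Of the sums, that of the immunoproteasome was −0.02, 0.09, 0.10 and 0.10 in CD8 over CD4 cells of YM, YCP, OM and OCP. With the median of all genes subtracted, which was −0.14 to −0.08, all 4 were above 0 (0.11 to 0.24). The constitutive sum was lower in CD8 cells in all 4 libraries (−0.19 to −0.12), of which 1 was above 0 under either other scaling. The 11 non-ATPase subunits of the cap were lower in CD8 cells in all 4 libraries under each scaling, by −0.35 to −0.18 before any rescaling.

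Between the tissues the immunoproteasome sum differed little. The log2 ratio of choroid plexus over meninges was −0.03, 0.08 and 0.01 in young CD4, CD8 and neither cells and −0.08, −0.08 and 0.02 in aged ones, and the counting interval left out 0 in aged CD8 cells alone (−0.15 to −0.01). The constitutive sum ranged from −0.11 to 0.05. Its non-ATPase cap subunits were lower in the choroid plexus in all 6 pairs (−0.38 to −0.02), the smallest of which, in aged neither cells, was above 0 with the ribosomal and other genes left out (0.0092).

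The difference was also seen per cell. In cells thinned to 1000 UMIs, the 5 immunoproteasome genes had a mean of 1.83 to 2.17 UMIs per cell in young and 2.44 to 2.94 in aged classes. Cells with 0 such UMIs were 15.9 to 17.6% of young and 6.22 to 10.9% of aged cells. The 31 constitutive genes had 2.94 to 3.40 UMIs per cell in young and 3.17 to 3.76 in aged classes.

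**Figure D4:**
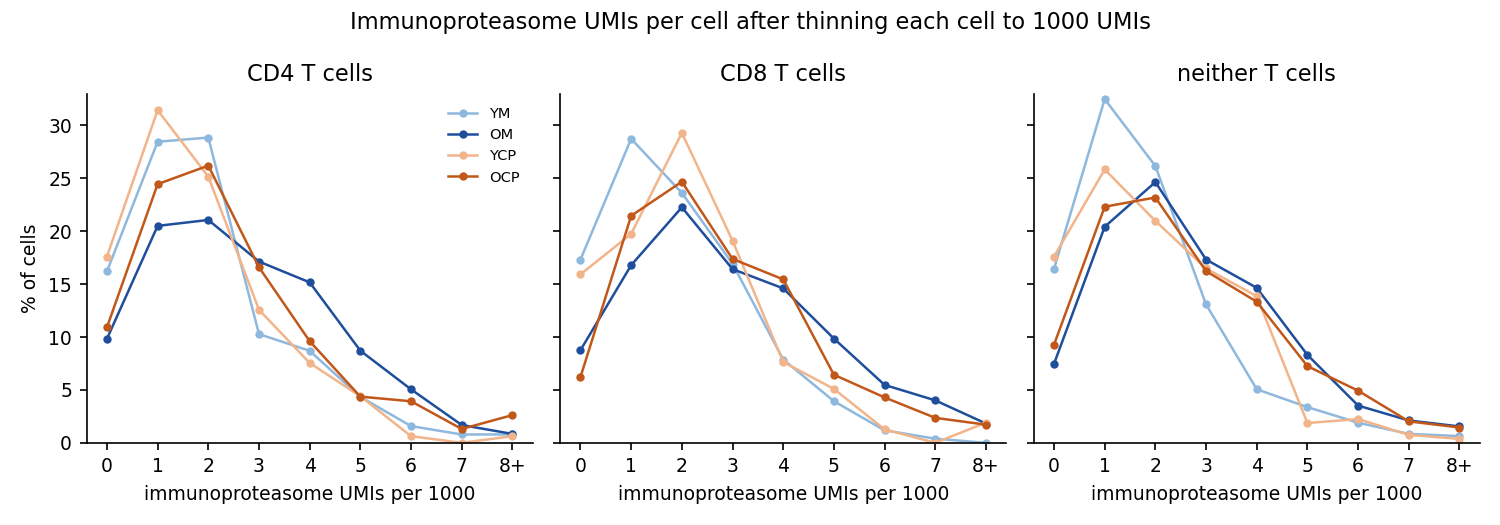
Distribution of UMIs of the 5 immunoproteasome genes per T cell after thinning each cell to 1000 UMIs, as percent of cells (vertical axis) against UMIs per cell (horizontal axis), in a panel for each class. Lines are 1 library each, and no error is drawn. The share of cells at 0 is 15.9 to 17.6% in young and 6.22 to 10.9% in aged classes.

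The libraries also differed in the make-up of their T cells. Ccr7 is a homing receptor of naive and central memory T cells, and Cxcr3 a chemokine receptor of effector and memory T cells. Cells without a Ccr7 UMI were 35.4 to 52.5% of the young and 88.7 to 91.1% of the aged classes (60.3 to 73.8% and 94.6 to 98.2% after thinning). In each library and class, cells with a Cxcr3 but no Ccr7 UMI were therefore set beside cells with a Ccr7 but no Cxcr3 UMI. The first gate held 20 to 68 young and 70 to 246 aged cells per class, and the second 69 to 274 young and 16 to 57 aged cells.

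Psmb8 was higher in the Cxcr3 gate than in the Ccr7 gate in all 12 sums, by 0.45 to 1.25 on the log2 scale. In young CD8 cells of the choroid plexus, for example, it was at 1006 CPM in the Cxcr3 gate and 417 in the Ccr7 gate. The immunoproteasome sum was higher in the Cxcr3 gate by 0.23 to 0.86 and the constitutive sum by 0.11 to 0.75, where the median of all genes was 0.10 to 0.44. In an alternative added after the data were seen, with ribosomal and other genes left out of the total, the immunoproteasome sum was higher by 0.02 to 0.57 and the constitutive sum lay between −0.01 and 0.44. Ribosomal protein genes held 25.7 to 32.4% of the UMIs in the Cxcr3 gate and 35.5 to 47.0% in the Ccr7 gate. Single genes did not all follow. Psme1 had ratios of −0.24 to 0.11 in CD8 cells and of −0.08 in CD4 cells of OCP, Psmb10 had −0.04 and −0.11 in CD4 and CD8 cells of OCP, and Psmb9 had −0.99 in CD4 cells of YCP, with an interval below 0 (−2.22 to −0.05).

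Within the Cxcr3 gate, no difference of Psmb8 with age was detectable at this depth. Psmb8 was at 999 CPM in YM and 1021 in OM in CD4 cells, 968 and 1078 in CD8 and 974 and 1052 in neither cells. In the choroid plexus it was at 910 in YCP and 979 in OCP in CD4 cells, 1006 and 1102 in CD8 and 984 and 1002 in neither cells. The log2 ratios were 0.03 to 0.15, the counting interval of each included 0, and the upper bounds were 0.30 to 0.53, against ratios of 0.60 to 0.72 in all cells. The other catalytic genes went in different directions there. Psmb9 ranged from −0.11 to 1.22, with the interval above 0 in CD4 cells of the meninges (0.51, 0.08 to 0.99) and of the choroid plexus (1.22, 0.28 to 2.45). Psmb10 ranged from −0.77 to 0.20, with the interval below 0 in CD4 cells of the meninges (−0.77, −1.33 to −0.27) and CD8 cells of the choroid plexus (−0.70, −1.29 to −0.13). The immunoproteasome sum ranged from −0.08 to 0.18 with the interval above 0 in CD8 cells of the meninges alone (0.02 to 0.35), and the constitutive sum from −0.33 to −0.03, of which CD8 cells of the choroid plexus came to just above 0 with the ribosomal and other genes left out. The constitutive interval was below 0 in CD4 (−0.27 to −0.03) and CD8 (−0.46 to −0.20) cells of the meninges and CD4 cells of the choroid plexus (−0.42 to −0.05). The immunoproteasome share of catalytic UMIs was 73.7 to 82.2% in young and 79.6 to 83.0% in aged classes of this gate, ranges that overlapped. It was lower with age in CD8 cells of the choroid plexus alone (80.7% in YCP and 80.2% in OCP).

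In the Ccr7 gate, where aged cells were few, the ratio of Psmb8 was 0.11 to 0.89 with the interval above 0 in CD8 and neither cells of the choroid plexus. For all cells without a Ccr7 UMI, whatever their Cxcr3, the immunoproteasome sum was higher with age in all 6 pairs, by 0.23, 0.44 and 0.14 for the meninges, by 0.30, 0.16 and 0.37 for the choroid plexus, and Psmb8 by 0.33 to 0.53. The constitutive sum was there between −0.06 and 0.15, above 0 in 3 of 6 pairs and in 1 of 6 with the ribosomal and other genes left out. For all cells with a Ccr7 UMI, the immunoproteasome sum was also higher with age in all 6 pairs, by 0.22 to 0.48 with each interval above 0, and the constitutive sum lay between −0.06 and 0.35. Because a cell with few UMIs can miss Ccr7 or Cxcr3, the gates sort cells by detection, and how much of the age difference goes with the make-up of the pools was not tested.

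**Figure D5:**
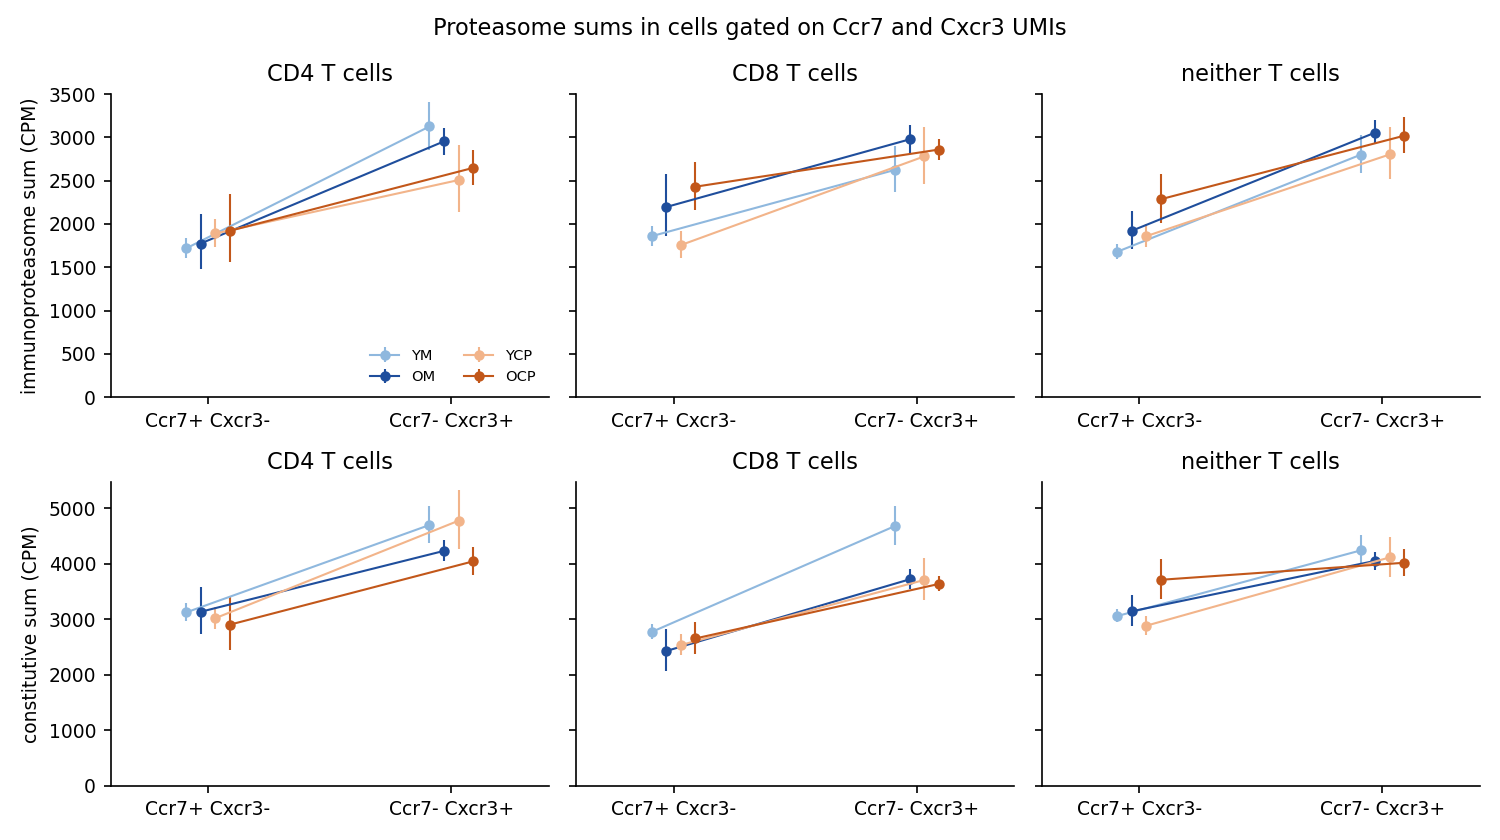
Immunoproteasome sum (upper panels) and constitutive sum (lower panels) in CPM (vertical axes, from 0) in cells with a Ccr7 but no Cxcr3 UMI and cells with a Cxcr3 but no Ccr7 UMI (horizontal axes), for each class. Points are 1 library each with exact 95% Poisson intervals, and lines join the gates of a library. In CD4 cells of YM the immunoproteasome sum is 1718 CPM in the Ccr7 gate and 3126 CPM in the Cxcr3 gate, and both sums are higher in the Cxcr3 gate in all 12 pairs.

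Genes around the pathway were set beside the subunits. Of 10 regulators and class I loading genes, all with enough UMIs, 1, 2 and 0 were higher by the limit in CD4, CD8 and neither meningeal cells, and 3, 2 and 2 of those of the choroid plexus, with 0 lower, where the share of all genes higher was 14.2%, 13.1% and 11.9%, and 17.4%, 13.5% and 14.2%, and the share lower was 5.2 to 7.72%. Their medians were 0.18, 0.37 and 0.16, and 0.39, 0.39 and 0.40. Nlrc5, the transactivator of class I genes, had the largest mean ratio of them, with 0.64, 0.40 and 0.48 for meningeal cells, and 0.71, 0.36 and 0.82 for the choroid plexus. Tap1, the neighbour of Psmb8 and Psmb9, had 0.49, −0.01 and 0.45, and 0.19, 0.52 and 0.18. Irf1, a transcription factor induced by interferon, ranged from −0.22 to 0.48.

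Assembly factors and partners of the proteasome showed no common direction. Of the 23 found, 12 to 20 had enough UMIs in a comparison, and 0, 0 and 0 were higher in meningeal cells, against 2, 0 and 2 for the choroid plexus, with Ubqln1 the one gene lower, in neither cells of the meninges. Among all genes compared, 11.9 to 14.2% were higher in meningeal cells and 13.5 to 17.4% for the choroid plexus. In neither cells of the meninges, 7.01% of all genes were lower. Their medians were −0.07 to 0.17. Sem1, a small lid protein, had the largest mean ratio of the list, 0.18 to 0.50. Pomp, the chaperone of core assembly, had ratios of 0.02 to 0.27, and Nfe2l1, which drives subunit genes when the proteasome is inhibited, had 0.32 and 0.35 in CD4 and neither cells of the meninges and 0.03 in CD8 cells of the choroid plexus, with too few UMIs elsewhere.

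Classical interferon-stimulated genes had higher sums in OM than in YM in all 3 classes. The 10 genes summed to 530 to 560 CPM in YM and 1006 to 1109 in OM, and to 393 to 527 CPM in YCP and 479 to 577 in OCP. Without thinning, 58.7, 64.6 and 54.5% of CD4, CD8 and neither cells of YM had a UMI of any of them. In OM the shares were 57.7, 67.3 and 57.4%, so that they differed less than the sums. Cells of OM were shallower, with medians of 2329, 2811 and 2079 UMIs against 3215, 3645 and 2993 in YM. Lower depth lowers detection, so that these shares cannot be set directly against the sums. Of the 7, 6 and 9 with enough UMIs in CD4, CD8 and neither cells of the meninges, 6, 5 and 7 were higher by the limit, and of the 4, 6 and 6 in the choroid plexus 1, 0 and 1 were higher and 0, 1 (Ifit1) and 1 (Rtp4) lower. Of all genes, 11.9 to 14.2% were higher in meningeal cells, and 13.5 to 17.4% were higher and 5.2 to 7.72% lower for the choroid plexus. Ifit3 had the largest mean ratio of the list, with 1.29, 1.01 and 1.70 in meningeal cells, but −0.09 and 0.08 in CD8 and neither cells of the choroid plexus. The ratios of Psmb8 given above, by contrast, lay between 0.60 and 0.72 in both tissues. The difference between the tissues was not tested.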

How the data were processed

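The authors deposited, for each library, a 10x matrix of UMI counts per gene and cell barcode, made with Cell Ranger (5.1.0 in the submitters' notes, 3.1.0 in the file headers) and STAR on mm10. The counts were not normalised. The totals were 3737140 UMIs in YM, 2295950 in YCP, 4262917 in OM and 3957717 in OCP. Cells were filtered as in the study, except that doublets were called with Scrublet in scanpy 1.11.5 (16, 22, 0 and 5 removed in YM, YCP, OM and OCP), and since under 0.5% were called in OM and OCP, doublets may remain there. The CD4 and CD8 gates were set here. UMIs were summed per library and class, scaled to CPM, and compared as log2 ratios after adding 10 CPM, for genes with at least 50 UMIs in both libraries together. Poisson (Garwood) and Clopper-Pearson intervals are at 95%. Differences between shares have Newcombe's interval, which is approximate. Intervals of ratios are exact for the ratio of counts without the added 10 CPM. With 1 library per condition no test was made. The calling of ratios was checked on simulated counts drawn with counting error alone. Variation between mice or libraries was absent from them, so that this check cannot speak to it. The naming rule uses no measured value, but the gene family and the lists were chosen with earlier results of these data known. Values were given in every library for the 5 immunoproteasome genes, their 3 counterparts and, in each structural group, the gene with the highest mean level and the gene with the largest absolute mean age ratio. The alternatives changed the cell filters, depth, weighting, scaling, classes, limits and pseudocount. Positions are those of GENCODE vM21, and promoter windows are those of RefSeq. The values of 1 gene of the pathway lists are not reported here.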

Additional observations from a re-analysis of the deposited data

Results flagged for a closer look

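3 cap subunits had age ratios on opposite sides of 0 in the same class of both tissues, each with the ratio of 1 tissue past the limit of 0.5, and the difference between the tissues was not tested. In CD8 T cells, the log2 ratio of aged over young for Psmd7, a lid subunit, was −0.53 (−1.10 to −0.11) for the meninges and 0.21 (−0.27 to 0.78) for the choroid plexus. For Psmd8, a lid subunit too, it was −0.52 (−0.94 to −0.19) and 0.14 (−0.24 to 0.55) in the same cells. For Psmd6 in neither cells it was −0.10 (−0.57 to 0.34) for the meninges and 0.53 (−0.06 to 1.42) for the choroid plexus, and both intervals included 0. These values rest on 74 to 290 UMIs per pair of libraries. Of all genes compared in CD8 and neither cells, 11.9 to 14.2% were higher and 5.2 to 7.18% lower by the limit. The share of all genes with such opposite ratios is not given, so that the 3 are not read as a trait of the cap.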

How the results depend on the processing

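No paired analysis was possible because each condition had 1 library and the labels carry no replicate number. Over 13 alternatives, the ratio of aged over young was above 0 in 78 of 78 values for the immunoproteasome sum (0.14 to 0.64), in 78 of 78 for Psmb8 (0.33 to 0.82) and for Psmb9 (0.17 to 0.88), in 76 of 78 for Psmb10 (−0.09 to 0.91) and in 74 of 78 for the constitutive sum (−0.06 to 0.29). The sums, shares and ratios of sums given next lay outside the counting interval of the reported ones, in the order CD4, CD8, neither of the meninges and then of the choroid plexus where 6 are given, and the cause was not tested. With cells thinned to 1000 UMIs, the immunoproteasome sum was 0.64 in CD8 and 0.55 in neither meningeal cells, the constitutive sum 0.20 in CD4 and 0.18 in neither meningeal cells, the catalytic share 7.71 points higher in neither meningeal cells, the tissue ratio 0.20 in young CD8 and 0.14 in young neither cells, and the ratio of CD8 over CD4 0.24 in YCP. The constitutive sum of CD8 meningeal cells was 0.29 with cells weighted equally, 0.28 without cells with gamma-delta or natural killer markers and 0.26 without cells with Mki67 or Top2a. With ribosomal protein, mitochondrial, receptor and immunoglobulin genes left out of the total, the immunoproteasome sum was 0.29, 0.38, 0.29, 0.21, 0.25 and 0.28, the constitutive sum 0.0028, 0.045, −0.0068, 0.010, 0.064 and 0.13, and CD8 over CD4 0.13 in YM, 0.22 in OM and 0.18 in OCP. Centred on the median of all genes, the choroid plexus gave 0.23, 0.25 and 0.29 for the immunoproteasome and 0.032, 0.065 and 0.15 for the constitutive sum, and CD8 over CD4 was 0.11 in YM, 0.24 in OM and 0.19 in OCP. Without cells with markers of other cell types, the constitutive sum was 0.19 in neither meningeal cells and 0.013 in CD8 cells of the choroid plexus, the immunoproteasome sum 0.31 in neither cells of the choroid plexus, the tissue ratio 0.13 in young neither cells and CD8 over CD4 0.19 in OM. In cells without Ccr7, the immunoproteasome sum was 0.23 in CD4 and 0.14 in neither meningeal cells and 0.16 in CD8 cells of the choroid plexus, the constitutive sum −0.063, 0.044, −0.058, −0.046, 0.017 and 0.15, the catalytic share 2.23 points higher in neither meningeal cells, the tissue ratio −0.17 in young CD4 and −0.22 in young neither cells, and CD8 over CD4 0.24 in YCP. With classes set after thinning, the immunoproteasome sum was 0.26 in CD4 cells of the meninges and 0.22 in those of the choroid plexus, CD8 over CD4 was 0.23 in OM and 0.22 in OCP, and Psmd10 in CD4 cells of the choroid plexus, under 50 UMIs, fell from 0.55 to −0.032, within its counting interval. With a minimum of 20 UMIs, 2 members were higher in CD4 cells of the choroid plexus, and at a limit of 1 on the log2 scale 0 members were higher or lower in any pair. The shares of all genes at that minimum and at that limit are not given. In alternatives added after the data were seen, centring gave 2 members higher in CD8 meningeal cells, 0 in CD4 and 2 in neither cells of the choroid plexus, and 1 lower in CD4 meningeal cells, and leaving out ribosomal and other genes gave the same 4 counts, with 1 higher in CD4 and 2 lower in neither meningeal cells. With centring, 9.03 to 12.6% of all genes were higher and 7.39 to 10.9% lower. With those genes left out, the shares were 10.1 to 13.5% and 7.98 to 13.4%. Depth limits the scarce members, and no alternative replaces the missing replicate libraries.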

Other observations

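T cells in which Cd4 was detected together with Cd8a or Cd8b1 entered no comparison. The immunoproteasome sum of these cells was 1893 CPM in YM, 2199 in YCP, 2876 in OM and 3072 in OCP, from 18, 16, 30 and 33 cells. Their constitutive sum was 2999, 3411, 3904 and 3977 CPM in the same order.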
